A study of Drosophila melanogaster with 6 samples.

Results

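The genes described here are 8 Drosophila genes known for sex-biased expression in the fat body: fit, Obp99b, sxe2, Cyp4d21 (also called sxe1), takeout (to), and the yolk protein genes Yp1, Yp2 and Yp3. They were chosen by name, as every probe set that the array's annotation gives to them. Of the 8 genes 7 had a probe set, 1 each, among 11953 genes named on the array, and 5 of the 7 were bright enough to be tested. No probe set was annotated to takeout, so its own transcript is not analysed here.

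RNA from whole male heads was hybridised to 6 Affymetrix expression arrays, 3 per genotype. The Sxl deletion males carried Sxlfp7BO, which removes the whole Sex-lethal gene, together with the marker mutations cm and ct on either side of it. Wild-type males were their brothers, labelled Oregon-R, the strain into which the deletion had been backcrossed for more than 6 generations. Heads of both genotypes came from adults aged 2 to 5 days, reared at 25 °C. The deletion is present in every cell, and the 2 genotypes also differ at cm, at ct and at any linked Oregon-R sequence, so the loss of Sxl and these differences cannot be told apart. The labels call the 3 samples of a genotype biological replicates and do not say how many heads or cultures each held.

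The fat body is the insect tissue that stores fat and glycogen and secretes most blood proteins, and part of it lies in the head around the brain. Sxl heads the sex determination hierarchy: in females its protein directs splicing of transformer (tra), and tra in turn directs the sex-specific splicing of doublesex (dsx) and fruitless (fru), whose products set sex-specific transcription in tissues such as the fat body. Males normally make no functional Sxl protein from the same gene. The genes below lie downstream of that hierarchy or beside it. Some are known as female-enriched in head fat cells (fit) or in fat body at large (the yolk proteins), others as male-enriched (Obp99b, Cyp4d21, takeout).

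The array intensities matched the genotype labels: the 3 Sxl probe sets lay between 3.99 and 6.26 in deletion heads, against 88.8 to 206 in wild-type heads. The arrays of all 6 samples had nearly the same distribution, with median intensities from 14.2 to 14.6. Fat body tissue was present in the samples by its own transcripts. Lsp2, a storage protein gene of the fat body, read 5308 to 6533 in deletion heads and 7221 to 8057 in wild-type heads. The gene apolpp, for the lipid carrier of the blood, read 5233 to 5439 in deletion heads and 5552 to 5744 in wild-type heads. The larval fat body genes Fbp1 and Fbp2 stayed at or under 11.4 on every array. Markers of accessory gland, ovary and testis (15 genes, tissues that a head lacks) read from 4.29 to 15.5, with a median of 6.09, and give the level that absent transcripts reach on these arrays.

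Of the 5 tested genes, fit and Obp99b fell in the deletion males, and sxe2, Cyp4d21 and Yp3 did not pass the test. A call here means an adjusted p under 0.05 from limma fitted over 11261 probe sets. Over all of them 2.60% were called, 1.38% lower and 1.23% higher. For 4 of the 5 genes (fit, Obp99b, sxe2 and Yp3) the 3 values of one genotype lay wholly beyond those of the other, as did 24.0% of all tested probe sets (12.0% lower and 12.1% higher). Intensities of different probe sets cannot be set against each other, so no order of abundance is given between the genes.

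The plot of intensities by array shows all 7 measured genes.

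**Figure D1:**
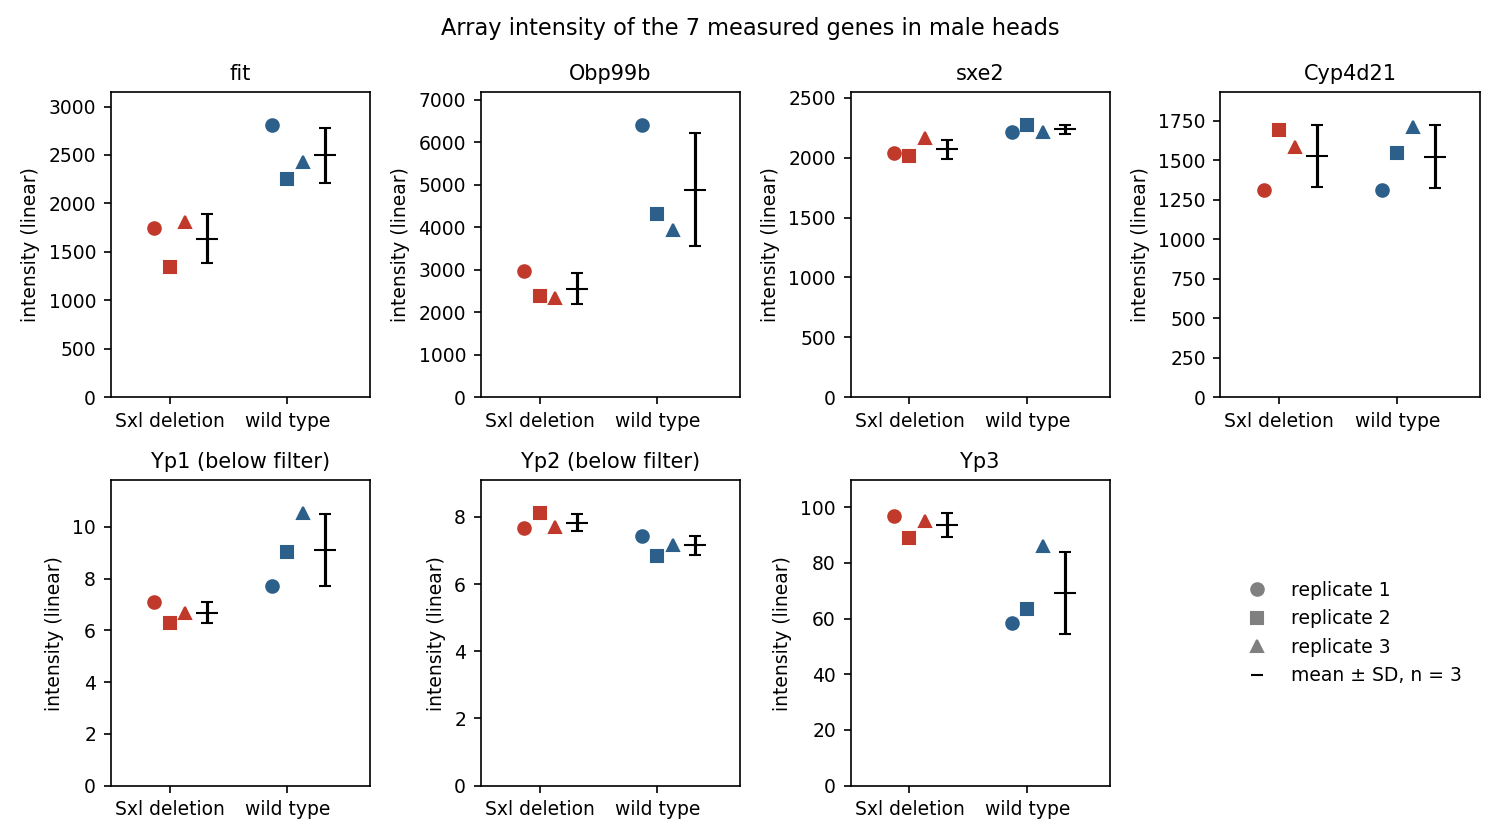
Linear array intensity (vertical axes, from 0, one scale per gene) of the 7 measured genes, with Sxl deletion heads in red and wild-type heads in blue, 3 arrays each. Symbols mark the replicate number and black bars the mean ± SD. The genotypes separate for fit, Obp99b and Yp3, separate by a small margin for sxe2, and overlap for Cyp4d21, while Yp1 and Yp2 stay at or under 10.5 on all arrays.

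The female-enriched gene fit (CG17820, chromosome 3R) encodes a small secreted protein of head fat cells that was named for being female-specific independently of transformer, and that is known as a satiety signal released after protein feeding. It read 1748, 1349 and 1810.2 in deletion heads, against 2812, 2255 and 2426 in wild-type heads. All 3 deletion arrays were below all 3 wild-type arrays, with deletion replicate 2 the lowest and wild-type replicate 1 the highest. The means were 1635 ± 250.4 and 2498 ± 286 (SD, n = 3 arrays each), a log2 fold change of -0.62 ± 0.12 (SE, 95% interval -0.90 to -0.33), or 0.652 of the wild-type level, with a limma adjusted p of 0.0448. Only 60 of the 11261 tested probe sets had a more negative log2 fold change. Signal of this female-enriched gene was far above the level of absent transcripts in male heads of both genotypes.

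Obp99b (CG7592, chromosome 3R), also named turn on sex-specificity (tsx), encodes an odorant-binding protein family member that is made in fat cells and is known as male-enriched. Its intensities were 2964, 2371 and 2332 in deletion heads, against 6410.1, 4316 and 3928 in wild-type heads. The genotypes did not overlap, and wild-type replicate 1 stood well above the other arrays. The mean was 2556 ± 354 in deletion heads and 4884 ± 1335 in wild-type heads (SD, n = 3 each). The log2 fold change was -0.91 ± 0.18 (SE, 95% interval -1.32 to -0.50), or 0.532 of the wild-type level, with a limma adjusted p of 0.0446, and 23 of the 11261 tested probe sets had a more negative value. Both a female-enriched and a male-enriched gene were therefore lower in the deletion males.

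Both calls sat just inside the threshold. In bulk heads, fewer fat body cells and less RNA per cell cannot be told apart. With the replicate number as a block the limma adjusted p was 0.00312 for fit and 0.000849 for Obp99b, and the members called were again these 2, where 7.40% of all probe sets were called (3.98% lower and 3.42% higher). Between arrays of equal number the log2 difference was -0.69, -0.74 and -0.42 for fit and -1.11, -0.86 and -0.75 for Obp99b. The call of fit was lost when any single array was left out: limma adjusted p was 0.0955, 0.103 and 0.102 without deletion replicate 1, 2 or 3, and 0.0508, 0.0756 and 0.101 without wild-type replicate 1, 2 or 3. For Obp99b it was lost without deletion replicate 1, 2 or 3 (0.0730, 0.170 and 0.164) and without wild-type replicate 2 (0.0900), and was kept without wild-type replicate 1, with a log2 fold change of -0.70 (0.0124), and without wild-type replicate 3 (0.0483). Without an intensity trend in the variance model neither was called (0.0828 for fit and 0.0789 for Obp99b), and with robust variance estimates Obp99b was not (0.104). In all 18 alternatives the log2 fold change was negative, from -0.70 to -0.48 for fit and from -1.05 to -0.70 for Obp99b. The changes of filter, trend, variance estimate, block and threshold cannot alter this value, so its sign was open only in the other settings.

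**Figure D2:**
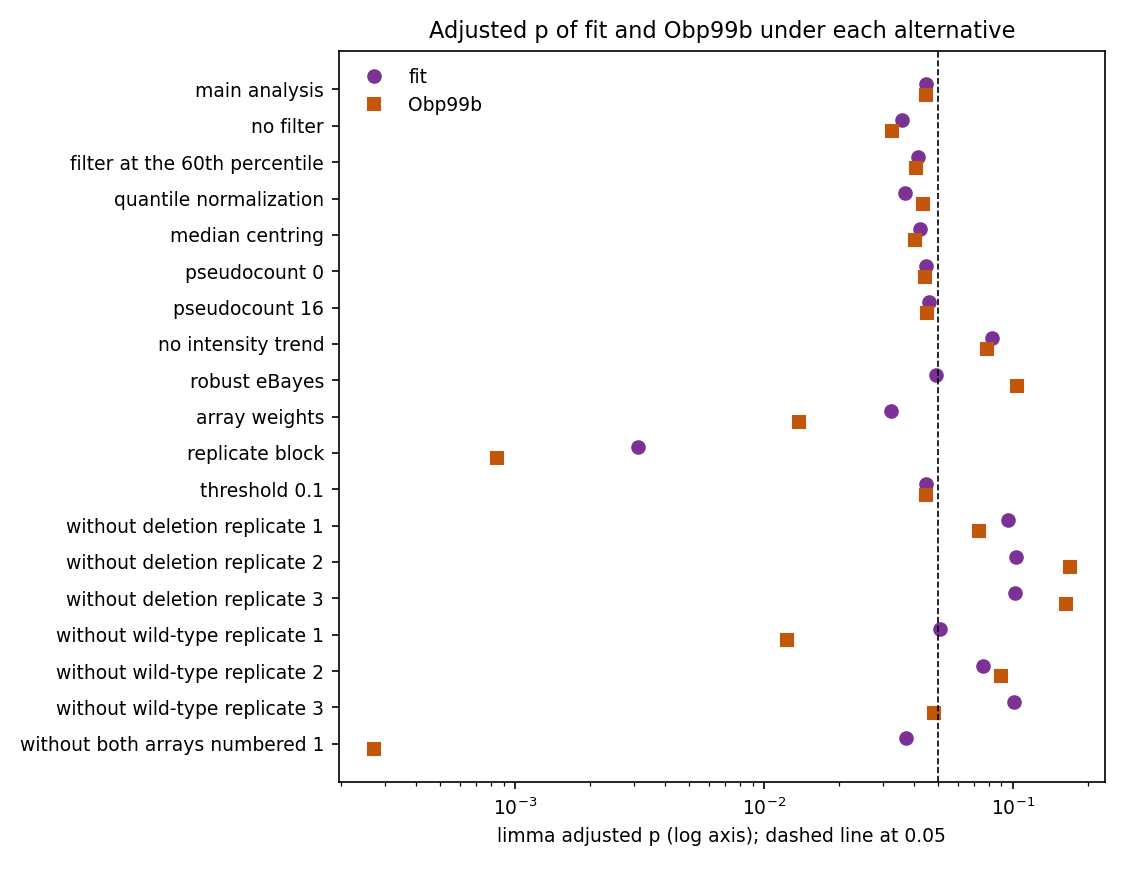
Limma adjusted p (horizontal log axis) of fit (circles) and Obp99b (squares) in the main analysis and 18 alternatives, with the threshold of 0.05 dashed. In the setting with a threshold of 0.1 the p-values are those of the main analysis. Most values from the full set of arrays lie left of the line, the replicate block gives 0.00312 and 0.000849, and all 3 settings that omit 1 deletion array lie right of it for both genes.

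The gene sxe2 (CG4979, chromosome 3R; sex-specific enzyme 2) encodes a lipase-like enzyme of the same protein family as the yolk proteins. It was the steadiest of the tested genes, with 2037, 2012 and 2161 in deletion heads and 2212, 2275 and 2217 in wild-type heads. The deletion values were all lower, by a small margin: 2069.9 ± 79.8 against 2235 ± 34.7 (SD, n = 3 each), a log2 fold change of -0.11 ± 0.04 (SE, 95% interval -0.21 to -0.02). That change did not pass (limma adjusted p = 0.216, and 0.159 with the block). The coefficient of variation was 3.86% in deletion heads and 1.55% in wild-type heads, against 13.9% and 27.3% for Obp99b.

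Cyp4d21 (CG6730, chromosome 2L; sex-specific enzyme 1) is a cytochrome P450 gene of the fat body with male-enriched and daily changing expression, and is known for a part in male mating. It read 1309, 1689 and 1586 in deletion heads, against 1311, 1543 and 1709.6 in wild-type heads. The genotypes overlapped throughout, and the lowest array of each was replicate 1. Means were 1528 ± 197 and 1521 ± 200.3 (SD, n = 3 each), with a log2 fold change of 0.01 ± 0.12 (SE) and a limma adjusted p of 0.986. The 95% interval of -0.27 to 0.28 does not show that the level was the same, and leaves room for changes smaller than that of fit.

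The yolk protein genes encode the 3 yolk precursors that the female fat body and ovary secrete, and their transcription is a classic target of doublesex. Yp1 (CG2985) and Yp2 (CG2979) are neighbours on the X, 281 and 280 protein-coding genes from Sxl, and Yp3 (CG11129) lies 652 genes from it on the same chromosome. Yp1 read 7.09, 6.30 and 6.68 in deletion heads and 7.73, 9.02 and 10.5 in wild-type heads. Yp2 read 7.66, 8.11 and 7.69 in deletion heads and 7.42, 6.84 and 7.17 in wild-type heads.

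All Yp1 and Yp2 values lay within the range of the 15 markers of absent tissues, and both probe sets fell below the filter, which keeps mean intensities from 8.35 upwards. A yolk protein signal above background was therefore not detectable for these genes in male heads of either genotype. Fitted without the filter they had limma adjusted p of 0.151 and 0.603. No fold change is given, since both genotypes are at the level of absent transcripts.

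Yp3 was measured above that range. It read 97.0, 88.8 and 94.9 in deletion heads, against 58.4, 63.5 and 85.9 in wild-type heads. The deletion arrays were all higher, with wild-type replicate 3 close behind them. The mean was 93.6 ± 4.28 in deletion heads and 69.3 ± 14.6 in wild-type heads (SD, n = 3 each), a log2 fold change of 0.45 ± 0.14 (SE, 95% interval 0.13 to 0.76) that did not pass (limma adjusted p = 0.142, and 0.0567 with the block). Among tested probe sets 177 of 11261 had a higher log2 fold change. Without wild-type replicate 3 the log2 fold change was 0.61 and passed (limma adjusted p = 0.0290), and in the other 17 alternatives it did not.

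The tested genes were also set against each other within each array, as the log2 ratio of 2 probe sets, so that effects common to a whole array cancel. Variation in opposite directions adds up instead. After removal of the genotype means, Cyp4d21 had a Pearson correlation of -0.93 with Obp99b and -0.66 with fit, so ratios to it are not cleaner measures. Log2 Obp99b minus log2 Cyp4d21 was 1.18, 0.49 and 0.56 in deletion heads and 2.29, 1.48 and 1.20 in wild-type heads. The difference between genotypes was -0.92 (exact permutation test over arrays, two-sided p = 0.1, adjusted p = 0.136), and the genotypes did not overlap, by a narrow margin. How often ratios of other probe sets separate in this way was not computed. Log2 fit minus log2 Cyp4d21 differed by -0.62, again with an exact permutation p of 0.1 (adjusted p = 0.136). For fit minus Obp99b the genotypes overlapped and the difference was 0.29 (exact permutation p = 0.3, adjusted p = 0.346). These were 15 comparisons with 3 against 3 arrays, where p cannot go below 0.1, so none could pass. The test therefore cannot decide whether Obp99b fell more than fit.

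Of 22 listed fat body genes 18 were on the array and 17 were tested; 3 were called lower and 0 higher, and 14 had a negative log2 fold change. The list's median was -0.19, against 0.00 over all 8670 genes tested, of which 1.49% were called lower and 1.20% higher. The 3 called were tobi, an insulin-responsive glucosidase gene (-0.92, limma adjusted p = 0.0313), Lsd-2, a lipid droplet coat gene on the X (-0.36, 0.00583), and Obp44a, another odorant-binding protein family member (-0.19, 0.0334). With the replicate block 9 were called, all lower, where 4.33% of all 8670 genes were called lower. The 6 added included Lsp2 (-0.35), the lipid transfer particle gene Apoltp (-0.29) and the fatty acid synthesis genes FASN1 (-0.27) and ACC (-0.25). The others added were the droplet coat gene Lsd-1 (-0.24) and the fat lipase bmm (-0.20). This list was drawn up with earlier results for some of its genes known, so its direction is not independent evidence.

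**Figure D3:**
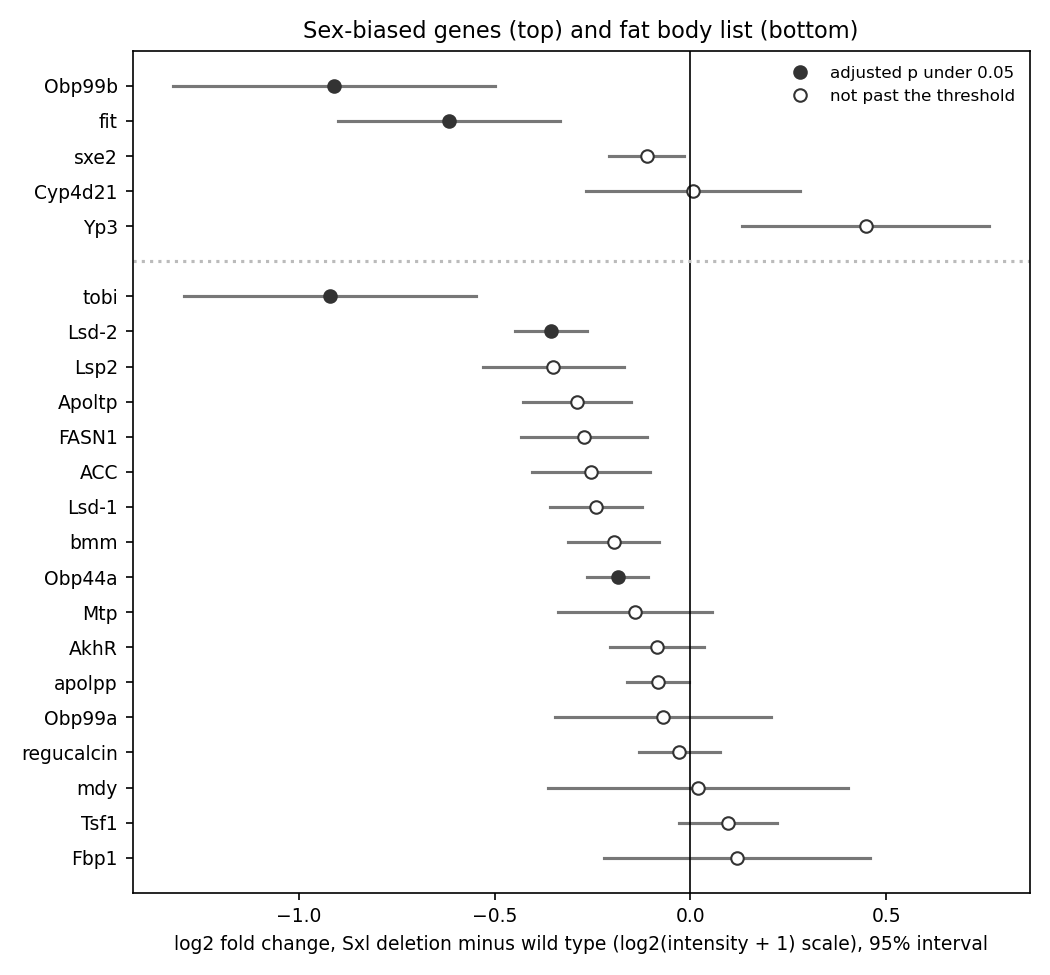
Log2 fold change (horizontal axis, Sxl deletion minus wild type on the log2(intensity + 1) scale) with 95% limma intervals for the 5 tested sex-biased genes above the dotted line and the 17 tested fat body genes below it. Filled circles passed an adjusted p of 0.05. Obp99b, fit and tobi lie farthest to the left, and 14 of the 17 fat body genes are below 0.

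The mean log2 value of the 17 fat body genes on an array differed by -0.19 between genotypes. That mean includes Fbp1 and Obp99a, which read at most 11.4 and 14.0, within the range of the absent-tissue markers. It also includes tobi, at -0.92, so values relative to it do not set a gene apart from every fat body gene. Relative to this mean on the same array, Obp99b differed by -0.72 and fit by -0.43. For Obp99b the deletion arrays were at 1.73, 1.48 and 1.43 and the wild-type arrays at 2.62, 2.16 and 2.02. For fit they were at 0.97, 0.67 and 1.06 in deletion heads and 1.43, 1.22 and 1.32 in wild-type heads. Neither overlapped (exact permutation p = 0.1 for each, the smallest possible). The share of all probe sets without overlap relative to this mean was not computed. On the plain log2 scale it was 24.0% of those tested, so the separation does not mark these genes out. On this scale sxe2 differed by 0.08 and Cyp4d21 by 0.20, with overlap, and Yp3 by 0.64 without it.

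Over the 6 arrays the log2 values of fit and Obp99b had a Pearson correlation of 0.91, and after removal of the genotype means 0.57. Set against tobi, these within-genotype values were 0.87 for fit and 0.83 for Obp99b, and -0.87 for Cyp4d21. Against Lsp2 they were 0.88 for fit and 0.73 for Obp99b, against Lsd-2 0.27 and 0.22, and against apolpp -0.57 and -0.14, so the fat body genes did not share 1 pattern over these arrays. With 6 arrays that share their genotype difference, these are descriptions only. Wild-type replicate 1 was the highest of all arrays for fit, Obp99b, tobi (2057) and Lsp2 (8057), and deletion replicate 2 was the lowest for fit, tobi (734) and Lsp2 (5308).

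**Figure D4:**
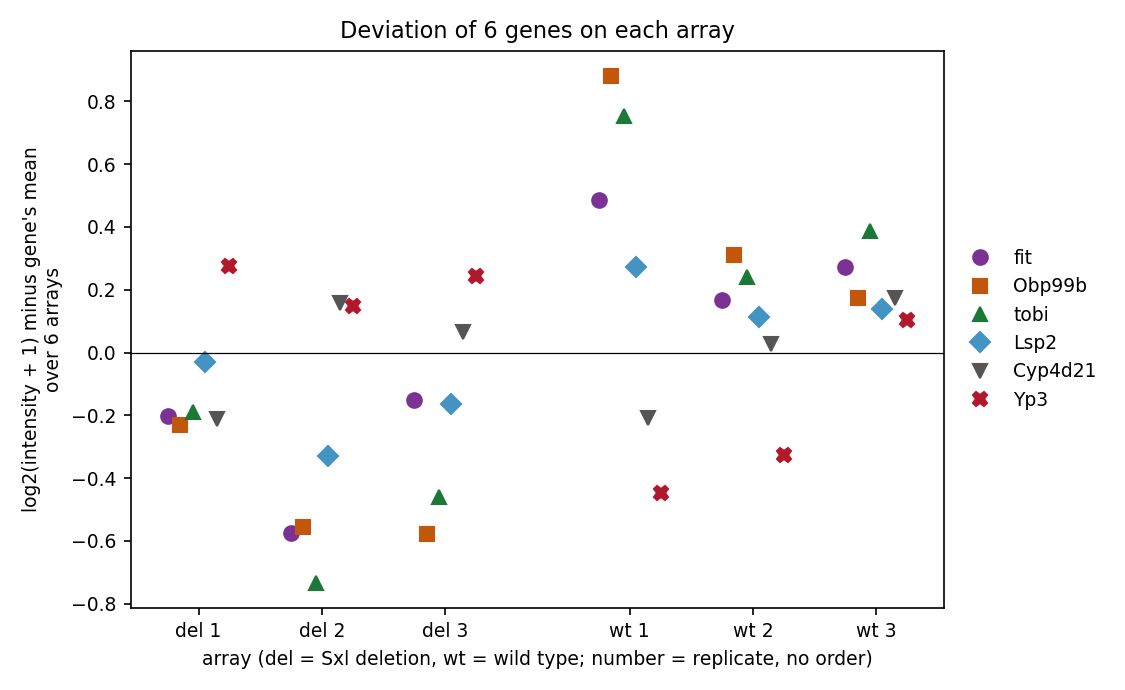
Log2(intensity + 1) of 6 genes minus each gene's mean over the 6 arrays (vertical axis), for 3 Sxl deletion arrays on the left and 3 wild-type arrays on the right; the numbers are replicate labels without order. Obp99b, fit, tobi and Lsp2 are negative on all 3 deletion arrays and positive on all 3 wild-type arrays, Yp3 is highest on the deletion arrays, and Cyp4d21 is lowest on replicate 1 of both genotypes.

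By Pearson correlation over the 6 arrays on the log2 scale, the named genes most like fit were CG14270, CG17698 and mRpS18B (0.999, 0.991 and 0.987), none of them called. Those most like Obp99b were senju, CG6567 and CG9416 (0.998, 0.997 and 0.997), of which CG9416 was called lower, with a log2 fold change of -0.82 (limma adjusted p = 0.0388). So few arrays give many such values: 73 probe sets exceeded 0.95 with fit and 130 with Obp99b.

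Takeout encodes a secreted protein related to juvenile hormone binding proteins and is known as male-enriched in head fat cells and as responsive to the clock and to starvation. With no probe set of its own, only its relatives could be read. Of 16 listed genes of the takeout family 14 were tested, with 1 called higher and 1 lower and a median log2 fold change of -0.02. The shares over all genes tested were 1.20% higher and 1.49% lower. Jhbp5 rose to 48.8, 52.8 and 51.5 in deletion heads, against 27.4, 30.9 and 29.4 in wild-type heads (log2 fold change 0.78 ± 0.08 SE, limma adjusted p = 0.00395). Jhbp13 fell to 2571, 2485 and 2553 in deletion heads, against 3101, 3068 and 2982 in wild-type heads (-0.27 ± 0.04, limma adjusted p = 0.0128). Of the genes directly beside takeout on chromosome 3R, Jhbp7 had a log2 fold change of 0.05 and CG11854 one of -0.58 (limma adjusted p = 0.160, and 0.0200 with the block). CG11854 read 8.42 to 11.4 in deletion heads and 11.8 to 19.3 in wild-type heads. Apart from wild-type replicate 2 (19.3), these values lay within the range of the absent-tissue markers, so its fold change and p-values cannot be relied on.

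The yolk proteins and sxe2 belong to a lipase family, most members of which are digestive or unstudied enzymes. Of 26 listed relatives 25 were on the array and 12 were tested. None of the 12 was called by limma, 2 had an unadjusted p under 0.05, where 18.6% of all 8670 genes had, and 0 were called with the block. Among the 12, CG10116, CG13562, CG13282, CG14034 and CG18641 read from 6.35 to 13.1, within the range of the absent-tissue markers. For these the lack of a call does not show an unchanged transcript. CG6847 had the smallest p, with a log2 fold change of -0.21 (limma adjusted p = 0.213).

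Sxl itself was lost with the deletion. The listed sex hierarchy genes, not all of which lie below Sxl, had no call. Of 13 such genes 10 were tested, and 0 were called by limma, 0 had an unadjusted p under 0.05 (18.6% over all genes) and 0 were called with the block. Among the 10, her read 8.46 to 12.1, within the range of the absent-tissue markers, so it gives no reading. The dsx probe set read 76.9, 117 and 137 in deletion heads and 80.0, 108 and 139.6 in wild-type heads, so its arrays differed more within a genotype than the genotypes did. For fru the brightest probe set read 229.6, 255 and 245 in deletion heads and 158, 232 and 224 in wild-type heads (log2 fold change 0.27, limma adjusted p = 0.373). These intensities do not separate the male and female splice forms.

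Several listed genes that respond to feeding or belong to the clock, both of which are known to act on genes of the set, were read on the same arrays. Over all genes tested, 1.49% were called lower and 1.20% higher. In the insulin and fasting list 3 of 11 tested genes were called, all lower. They were ImpL2, an insulin-binding protein (-0.54), and Ilp2 (-0.36) and Ilp5 (-0.47), insulin-like peptides of the brain. The hormone Akh, the fly counterpart of glucagon, had -0.45 without a call (limma adjusted p = 0.1998). In the clock list 1 of 10 rose (Clk, 0.57) and 1 fell (the neuropeptide gene Pdf, -0.57). The clock gene per read 119, 132 and 149 in deletion heads and 83.5, 109 and 143 in wild-type heads, lowest on replicate 1 of both genotypes, as Cyp4d21 was.

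Markers of other cell types were read beside the falls of fit and Obp99b, and most did not pass the test. Over all 8670 genes tested, 1.49% were called lower and 1.20% higher. All 4 photoreceptor markers tested had a positive log2 fold change and an unadjusted limma p under 0.05, against 18.6% of all genes. Of the 4, inaD, a scaffold of the light response, was called (0.53). With the block trp, a channel of the light response, was called as well (0.55, limma adjusted p = 0.0217). The summed intensity of the 4 was 24211 to 24830 in deletion heads and 19095 to 22135 in wild-type heads. Most of that sum came from Arr2 (10022 to 10165 and 8787 to 9635) and Arr1 (7900 to 8021 and 6696 to 7628). All 5 neuron markers were positive and none was called (1 of 5 had an unadjusted limma p under 0.05, against 18.6% of all genes, and nSyb was called higher with the block). Their sum was 1344 to 1483 in deletion heads, against 1203 to 1402 in wild-type heads. Muscle markers had no call and sums of 1994 to 2289 in deletion heads and 1853 to 2287 in wild-type heads. Of the 4 glial markers 3 were negative and none was called, with nrv2 (-0.24) called lower with the block (limma adjusted p = 0.0377) and sums of 6882 to 7125 in deletion heads and 6891 to 7534 in wild-type heads. Most of the glial sum came from Gs2 (5361 to 5498 and 5333 to 5767). Of 3 oenocyte markers tested, Desat1, a fatty acid desaturase gene that the fat body also expresses, was called lower (-0.32, limma adjusted p = 0.0334). Its list summed to 1992 to 2219.6 in deletion heads and 2509 to 2795 in wild-type heads. Nearly all of that sum was Desat1 itself (1962 to 2190 and 2475 to 2769), so it gives no reading of oenocytes. FASN2 read at most 10.4, within the range of the absent-tissue markers. Cyp4g1, the defining oenocyte gene, read 14.6 to 24.8 in deletion heads and 11.1 to 19.9 in wild-type heads. Among 5 hemocyte markers srp, a GATA transcription factor of blood cells that the fat body also needs, was called lower: it read 155, 172 and 185 in deletion heads and 212, 229 and 233 in wild-type heads (log2 fold change -0.40 ± 0.08 SE, limma adjusted p = 0.0439). The 5 summed to 816 to 986 in deletion heads and 827 to 923 in wild-type heads. The part of these shifts in the falls of fit and Obp99b was not tested. Gut and salivary gland markers stayed at or under 14.6 on all arrays.

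RNA integrity was read from the control probe sets, as 3′ over 5′ intensity. That ratio was 3.11 ± 0.288 in deletion heads and 3.38 ± 0.341 in wild-type heads for actin, 3.81 ± 0.107 and 3.67 ± 0.106 for GAPDH, and 3.40 ± 0.093 and 3.79 ± 0.269 for eIF-4a (SD, n = 3 each). Only the eIF-4a ratios did not overlap between genotypes among these 3 controls, with 3.30 to 3.47 in deletion heads and 3.55 to 4.08 in wild-type heads. Its part in the results was not tested.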

How the data were processed

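The authors deposited 1 linear intensity per probe set and array; their summarisation, background correction and normalization are not stated here by any label or header. Array medians differed by 0.05 on the log2 scale, under the limit of 0.2 set for renormalization, so the values were used as deposited, as log2(intensity + 1). Arrays have no read depth; their number limits the precision. The table holds 18952 probe sets; without its 183 controls, the 11261 with a mean at or above the 40th percentile entered a fit with limma 3.58.1 in R 4.3.3 (genotype only, intensity trend, two-sided, Benjamini-Hochberg, threshold 0.05). Fold changes are deletion minus wild type.

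Names came from the platform annotation (1 gene for 13647 probe sets, several for 402, none for 4720), updated through a table of RefSeq genes, also used for gene order. No coordinates are given, since no label or header names the array's genome build. A gene in a list was read by its brightest probe set. Members and lists were chosen with earlier results of these data known. Named genes are the members, Sxl, up to 4 per list with the smallest p, and the 3 most correlated genes per called member; other fat body genes, markers, per, dsx and takeout's neighbours were named with their values in view. Arrays of equal number correlated at 0.22, 0.25 and 0.11 in deviations from genotype means, all above 0.1, so they were taken as pairs; the labels do not say so, and p-values with that block may be too small. Before use, the fit was tested on simulated data.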

Additional observations from a re-analysis of the deposited data

How the results depend on the processing

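The omission of both arrays numbered 1, and following the fat body list through the alternatives, were chosen after the data were examined. Causes were not tested beyond what an omission removes.

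The 2 calls among the sex-biased genes became 0 without the intensity trend and 1 with robust variances, and 0 to 2 on leaving out 1 array. The 293 calls over all probe sets became 128 without the trend, 572 with array weights, 833 with the replicate block, 683 at a threshold of 0.1, 451 without both arrays numbered 1 and 54 to 432 on leaving out 1 array. The block changed the call of no sex-biased gene. The 3 fat body genes called became 5 with the filter at the 60th percentile, 5 with median centring, 1 without the trend, 6 with robust variances, 7 with array weights, 9 with the replicate block, 9 at a threshold of 0.1, 5 without both arrays numbered 1, and 1 to 4 with single arrays left out.

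Cyp4d21, at 0.01 and never called, changed sign to -0.0121 with median centring and -0.0173 with array weights, and ranged from -0.0963 to 0.114 with single arrays left out (-0.0697 without deletion replicate 2, -0.0241 without deletion replicate 3). Yp1 and Yp2 are at the level of absent transcripts and have a value only without the filter.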
